A study of Mus musculus with 4 samples.

Results

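Kinesins are the motor proteins that walk along microtubules, and the family was taken as every row of the count files whose symbol begins with Kif, followed by a digit or a c and then only digits or small letters. Of 53465 listed genes, 44 matched. Of these, 42 are kinesins. The other 2 were Kif1bp, which encodes a protein that binds kinesins and has no motor of its own, and Kif16bos, a noncoding RNA antisense to Kif16b, and both were kept apart. By textbook role the 42 kinesins were sorted into 12 mitotic members, 15 transport members, 6 members linked to cilia and 9 others.

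RNA-Seq was carried out on 1° mouse oligodendroglial cells (OGCs) from forebrain that had spent 3 days in differentiation medium (3ddiff). Ctrl cells were Zfp276 flox/flox, so that they carried the same floxed allele, with loxP sites around exons 2 to 5, as the Zfp276cko cells. The latter carried Sox10::Cre tg on top of Zfp276 flox/flox, and the Cre comes from a transgene that is driven by the Sox10 regulatory regions and is active in the oligodendroglial lineage. Mice were kept on a mixed C3H and C57Bl/6J background, and those bred for such cultures also had a Rosa26 stopflox tdTomato allele, a fluorescent reporter. The cells passed through mixed glial culture, shake-off and microglial depletion, and growth factors were then exchanged for medium with CNTF. There were 2 preparations per genotype, each pooled from 3 mice aged P2 to P4. Results hold for the 2 preparations of each genotype, and with 2 against 2 libraries an exact two-sided permutation test cannot reach p = 0.05.

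A kinesin turns ATP hydrolysis into steps along a microtubule, most of them toward the plus end. Mitotic kinesins build the bipolar spindle, move chromosomes and complete cytokinesis, and their transcripts are made mainly by cycling cells late in the cell cycle. Transport kinesins carry vesicles, mitochondria, endosomes and RNA granules. In oligodendrocytes (OLs) such transport serves the long processes and the myelin sheath, to which the mRNA of myelin basic protein is carried along microtubules. OL precursor cells (OPCs) divide, whereas OLs have left the cell cycle.

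The mitotic members share a promoter feature that the choice by name did not use. The hexamer TTTGAA, which was searched on both strands, is the core of the cell cycle genes homology region, an element known from promoters of late cell cycle genes. Read from the other strand it is spelled TTCAAA. RefSeq promoters (GRCm38.p6, 250 bases before to 50 after the start) were at hand for 11 of 12 mitotic and 11 of 15 transport members, for 5 of 6 cilium members and for 6 of 9 others. TTTGAA in either direction stood in 10 of the 11 mitotic promoters and in 1 of the 11 transport promoters, a second start of Kif1a. It also stood in 1 of the 5 cilium promoters and in 2 of the 6 others, Kif26b and Kifc5b. Over 27025 genes the share was 20.2%. Among the mitotic members Kif18a lacked it. In 8 of the 10 its first base lay between position −19 and position 20 from the start of the transcript. In Kif2c and Kif14 it lay further off, at −103 and −228, and the RefSeq starts used for both stand well inside the annotated genes. CCAAT on either strand, the box bound by NF-Y and often found upstream of that element, stood in 7 mitotic and 3 transport promoters, against 41.1% of all genes. This box was not particular to the mitotic group, as 3 of 5 cilium promoters, 3 of 6 others and 13 of 23 promoters of DNA replication genes (56.5%) held it. Among 25 promoters of genes that work with the mitotic kinesins, such as Cdk1 and Plk1, 18 held TTTGAA (72%), while 4 of 23 promoters of DNA replication genes did (17.4%). AAAGGG on either strand, letters contained in the motif the study describes for Zfp276, stood in 1 mitotic and 2 transport promoters, with 23.8% over all genes. A match of letters is a description and not a binding site.

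Promoter stretches are shown for 4 mitotic kinesins, to show how close to the start the hexamer lies, and for Kif13a and Kif21a, the transport kinesins with the largest differences between the genotypes. Each runs 5′ to 3′ on the strand of the gene from 120 bases before to 30 after the RefSeq start. Capitals mark the hexamer and the CCAAT box, each on either strand. The positions are chr19:37376262-37376411 (plus strand) for Kif11, chr9:122950961-122951110 (plus) for Kif15, chr7:127042391-127042540 (minus) for Kif22, chr9:61946770-61946919 (minus) for Kif23, chr13:46929689-46929838 (minus) for Kif13a and chr15:91049922-91050071 (minus) for Kif21a.
Kif11: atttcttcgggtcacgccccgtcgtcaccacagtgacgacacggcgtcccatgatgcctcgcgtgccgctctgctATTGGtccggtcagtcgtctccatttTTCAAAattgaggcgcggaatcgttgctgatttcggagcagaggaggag
Kif15: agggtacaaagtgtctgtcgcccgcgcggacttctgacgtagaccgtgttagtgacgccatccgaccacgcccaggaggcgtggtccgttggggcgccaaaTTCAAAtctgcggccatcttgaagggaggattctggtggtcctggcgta
Kif22: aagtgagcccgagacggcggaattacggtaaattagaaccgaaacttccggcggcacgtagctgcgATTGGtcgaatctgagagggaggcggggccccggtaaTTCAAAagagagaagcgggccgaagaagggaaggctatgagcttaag
Kif23: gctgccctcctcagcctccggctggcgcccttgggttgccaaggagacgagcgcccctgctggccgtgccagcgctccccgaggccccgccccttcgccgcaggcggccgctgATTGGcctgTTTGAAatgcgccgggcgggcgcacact
Kif13a: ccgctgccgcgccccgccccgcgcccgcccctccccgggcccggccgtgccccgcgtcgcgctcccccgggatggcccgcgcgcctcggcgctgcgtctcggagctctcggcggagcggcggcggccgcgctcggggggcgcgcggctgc
Kif21a: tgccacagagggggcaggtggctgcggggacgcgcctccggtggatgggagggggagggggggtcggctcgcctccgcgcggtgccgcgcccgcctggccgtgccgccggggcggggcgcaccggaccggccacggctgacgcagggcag
In Kif11 the hexamer begins at position −19 and the CCAAT box, read as ATTGG, at −45. In Kif22 they begin at −17 and −54. Neither of the shown transport stretches holds the hexamer or the box on either strand.

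The libraries held between 21068322 and 26599809 counted reads, and a normalized count is a count scaled to a common effective library size. The 2 ctrl libraries differed from each other far more than the 2 Zfp276cko libraries did, with a biological coefficient of variation (the relative spread beyond counting error) of 0.357 against 0.0480. The targeted gene Zfp276 had 1648 and 2230 normalized counts in ctrl against 490 and 503 in Zfp276cko cells (log2 fold change −1.97 ± 0.18 standard error, adjusted p = 0.0962 from edgeR, 1.2e-14 from DESeq2). Markers of the labelled cells were present, since all 14 OL markers and all 10 OPC markers were counted well enough to be tested. The OL markers summed to 407295 and 425211 normalized counts in ctrl against 228161 and 232277 in Zfp276cko cells. Markers of microglia (33910 to 61706 over the libraries) and astrocytes (42700 to 48923) were counted too, so the cultures were not of OGCs alone. Neuronal markers summed to 24411 to 40896, but Map2 and Elavl3 made up most of that sum in every library. Of the 15 neuronal markers, 10 were lowest in ctrl replicate 1, and the median one was 1.52 higher on the log2 scale in ctrl replicate 2. Snap25, Syt1 and Gad1 had 35.6, 33.2 and 78.4 normalized counts in ctrl replicate 1 against 484, 874 and 2002 in ctrl replicate 2. The neuronal sum thus does not show how far the ctrl libraries differed in such markers. In bulk RNA, fewer cells of a type and less RNA per cell cannot be told apart.

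Most transport kinesins were expressed above the mitotic ones. Per kb of exon, a scale that allows levels of different genes to be compared, Kif1a led with a mean of 2188 normalized counts over the 4 libraries. Kif5b (1106), Kif1b (1004) and Kif3a (897) followed. Among these, Kif1a lay above every other kinesin in each library, at 1813 to 2571, whereas the libraries of Kif5b (896 to 1333), Kif1b (837 to 1191) and Kif3a (822 to 940) overlapped. The highest mitotic kinesins on this scale were Kif11 (231) and Kif20a (194), and the lowest was Kif18a (28.8). The transport member Kif17, a neuronal motor for dendritic receptors, was among the rarest kinesins at 4.42 per kb. Kif1a and Kif1b made up 44.6% of all normalized counts of the transport group. Of the 42 kinesins, 38 reached a mean of 20 normalized counts and 39 passed the filter on low counts. Kif12 and Kif2b had no count in any library, which allows up to 3 counts in each, and Kif28 had between 3 and 8 counts.

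**Figure D1:**
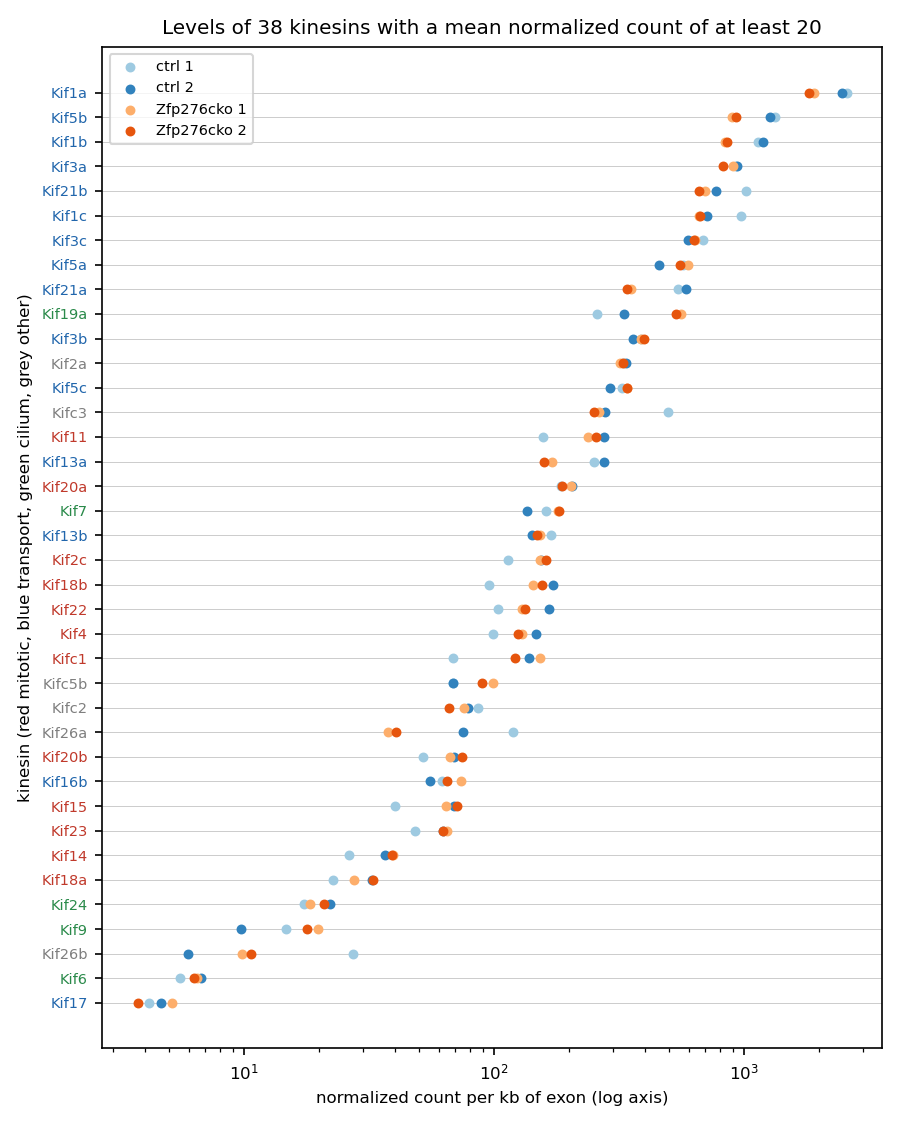
Level of each of 38 kinesins in every library, as normalized counts per kb of exon on a log axis, ordered by the mean, with 1 point per library and label colours for the role. Transport members fill the top of the plot from Kif1a downward, most mitotic members lie in its lower part, and ctrl 1 is the leftmost point in the rows of the mitotic members.

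The genotypes were compared to ask which genes differ when Zfp276 is deleted in the oligodendroglial lineage. For a kinesin to count as called, its adjusted p could not exceed 0.05, its log2 fold change had to reach 0.6 in size and its mean over the libraries had to reach 20 normalized counts. The quasi-likelihood test of edgeR called 0 of the 39 kinesins, as it called 0% of all 15766 genes higher and 0% lower. DESeq2, with the same thresholds, called Kif19a higher (background 2.92% of 15289 genes) and Kif13a, Kif21a and Kif26a lower (2.21%). The same 4 kinesins passed edgeR when the unadjusted p was held to 0.05 with both other thresholds, which 5.11% of all genes did as higher and 3.02% as lower. By unadjusted p alone, 2 kinesins were higher (background 8.33%) and 6 lower (7.3%). Zfp276cko libraries were both above both ctrl libraries in 8 of 39 kinesins (background 26.8%) and below both in 11 (23.7%). The median log2 fold change was 0.05 over the 39 kinesins and −0.0013 over all genes.

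**Figure D2:**
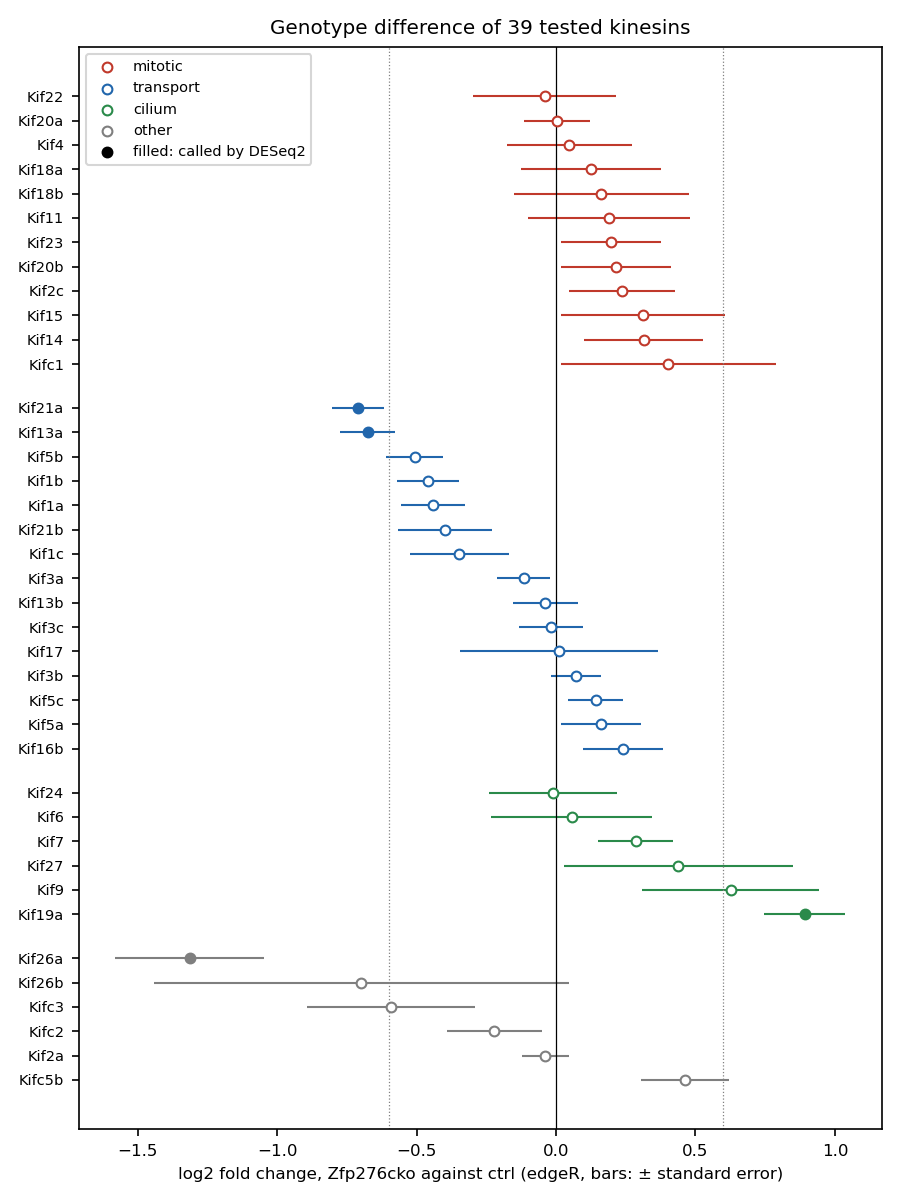
Log2 fold change of Zfp276cko against ctrl for the 39 tested kinesins, with bars of ± 1 standard error from edgeR, grouped by role, and dotted lines at the threshold of 0.6 in either direction. Filled points are the 4 kinesins called by DESeq2 (Kif21a, Kif13a, Kif19a and Kif26a), and the mitotic members lie between −0.04 and 0.40 with wide bars.

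The groups differed in where the lower values lay. Of the 15 transport members, 8 lay below both ctrl libraries (background 23.7% of all genes), 2 above both (26.8%) and 5 overlapped with them. An unadjusted p of at most 0.05 from edgeR was reached by 5, all of them lower (background 7.3% lower and 8.33% higher). Against the same backgrounds, 0 of the 12 mitotic members lay below, 1 above and 11 overlapped with ctrl. Such a p was reached by 0 of them in either direction. The median log2 fold change was −0.12 in the transport group and 0.19 in the mitotic group. Members of a group share libraries and cells, so these medians are descriptions and were not tested against each other.

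Summed over the group, transport kinesins reached 99255 and 92226 normalized counts in replicates 1 and 2 of ctrl, against 75926 and 74479 in Zfp276cko replicates 1 and 2. Both Zfp276cko sums were below both ctrl sums, and their mean was 78.5% of the ctrl mean. The mitotic kinesins summed to 5774 and 8760 in ctrl against 8051 and 8260 in Zfp276cko cells. Here both Zfp276cko sums lay between the ctrl sums, which were 1.52-fold apart, and the mean was 112% of ctrl. The mitotic share of both sums together was 5.50% and 8.67% in ctrl, against 9.59% and 9.98% in Zfp276cko cells.

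**Figure D3:**
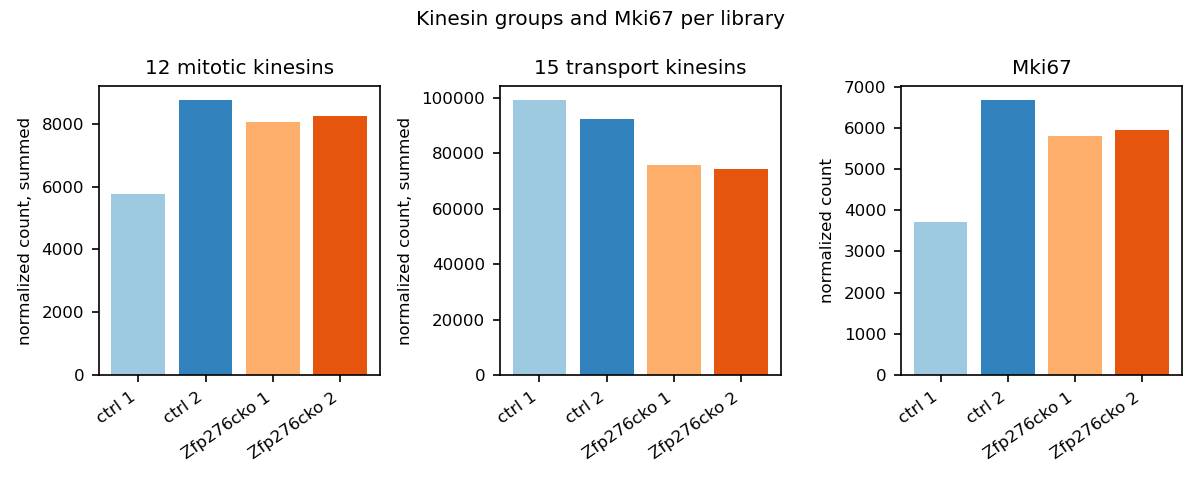
Normalized counts per library, summed over the 12 mitotic kinesins (left) and the 15 transport kinesins (middle), and of Mki67 (right), each on its own axis from 0. The mitotic sum and Mki67 are lowest in ctrl 1 (5774 and 3723) and highest in ctrl 2 (8760 and 6679), while the transport sum of either Zfp276cko library is below that of either ctrl library.

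Of the 8 transport kinesins below both ctrl libraries, 4 were kinesin-3 motors (Kif1a, Kif1b, Kif1c and Kif13a), which carry vesicle precursors and endosomes. Kif1a (chr1:93015464-93101951), the fast motor of synaptic vesicle precursors, had 23983 and 23027 normalized counts in ctrl against 17718 and 16918 in Zfp276cko cells. Kif1b (chr4:149176319-149307693), which moves mitochondria and vesicles and which zebrafish need to place myelin mRNA in OLs, had 19980 and 20979 against 14731 and 15044. Both genes were thus lower in each Zfp276cko library than in each ctrl library, and replicates lay close together. The log2 fold changes were −0.44 ± 0.11 for Kif1a (adjusted p = 0.218 from edgeR, 0.0202 from DESeq2) and −0.46 ± 0.11 for Kif1b (0.200 and 0.00942), short of the threshold of 0.6. Kif13a (chr13:46749087-46929867), which takes recycling endosomes and mannose-6-phosphate receptors outward, had 2026 and 2221 normalized counts in ctrl against 1374 and 1284 in Zfp276cko cells. Its log2 fold change was −0.68 ± 0.10 (adjusted p = 0.123 from edgeR, 0.00112 from DESeq2).

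Other kinesin-3 members differed less. Kif1c, a motor of dense core vesicles, had 7066 and 5189 normalized counts in ctrl against 4789 and 4846 in Zfp276cko cells, so that ctrl replicate 2 was close to the Zfp276cko libraries. Its log2 fold change of −0.35 shrank to −0.11 when ctrl replicate 1 was left out. Kif13b, the closest relative of Kif13a, had 2192 and 1850 in ctrl against 1995 and 1939 in Zfp276cko cells, with overlapping genotypes and a log2 fold change of −0.04. Kif16b, a motor of early endosomes, had 560 and 503 against 670 and 586 (0.24 ± 0.14), and both Zfp276cko libraries were above both ctrl libraries.

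The 3 kinesin-1 heavy chains, which serve mitochondria, RNA granules and many other cargoes, did not move alike. Kif5b, the form found in nearly all cells, had 10638 and 10095 normalized counts in ctrl against 7151 and 7432 in Zfp276cko cells, again without overlap. This gave a log2 fold change of −0.51 ± 0.10 (adjusted p = 0.172 from edgeR, 0.00651 from DESeq2). The neuronal forms Kif5a (3985 and 3197 in ctrl, 4161 and 3867 in Zfp276cko cells) and Kif5c (2325 and 2080, 2420 and 2440) had log2 fold changes of 0.16 ± 0.14 and 0.14 ± 0.10. For Kif5a the genotypes overlapped. The difference between the heavy chains was not tested.

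Kif21a and Kif21b are kinesin-4 motors that also restrain microtubule growth. Kif21a (chr15:90933276-91049948) had 3531 and 3806 normalized counts in ctrl against 2279 and 2199 in Zfp276cko cells, or 61.0% of the ctrl level. It had the smallest p of all kinesins, with a log2 fold change of −0.71 ± 0.09 (adjusted p = 0.121 from edgeR, 7.58e-05 from DESeq2). Without each library in turn the value stayed between −0.76 and −0.67. Kif21b had 12361 and 9444 in ctrl against 8496 and 8051 in Zfp276cko cells, with a wide gap between the ctrl replicates and a log2 fold change of −0.40 ± 0.17. That value was −0.19 when ctrl replicate 1 was left out and −0.59 without ctrl replicate 2.

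The kinesin-2 motors, which drive intraflagellar transport and carry late endosomes, showed small differences. Kif3a had 3321 and 3371 normalized counts in ctrl against 3225 and 2948 in Zfp276cko cells (log2 fold change −0.12). Its partners Kif3b (0.07) and Kif3c (−0.02) had overlapping genotypes, as did Kif17 (0.01), which had only 17.2 to 23.5 normalized counts. Exons of Kif3c overlap 1110002L01Rik on the opposite strand over 35.3% of their length, and the strand setting of the counting is not given in the sources used here.

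**Figure D4:**
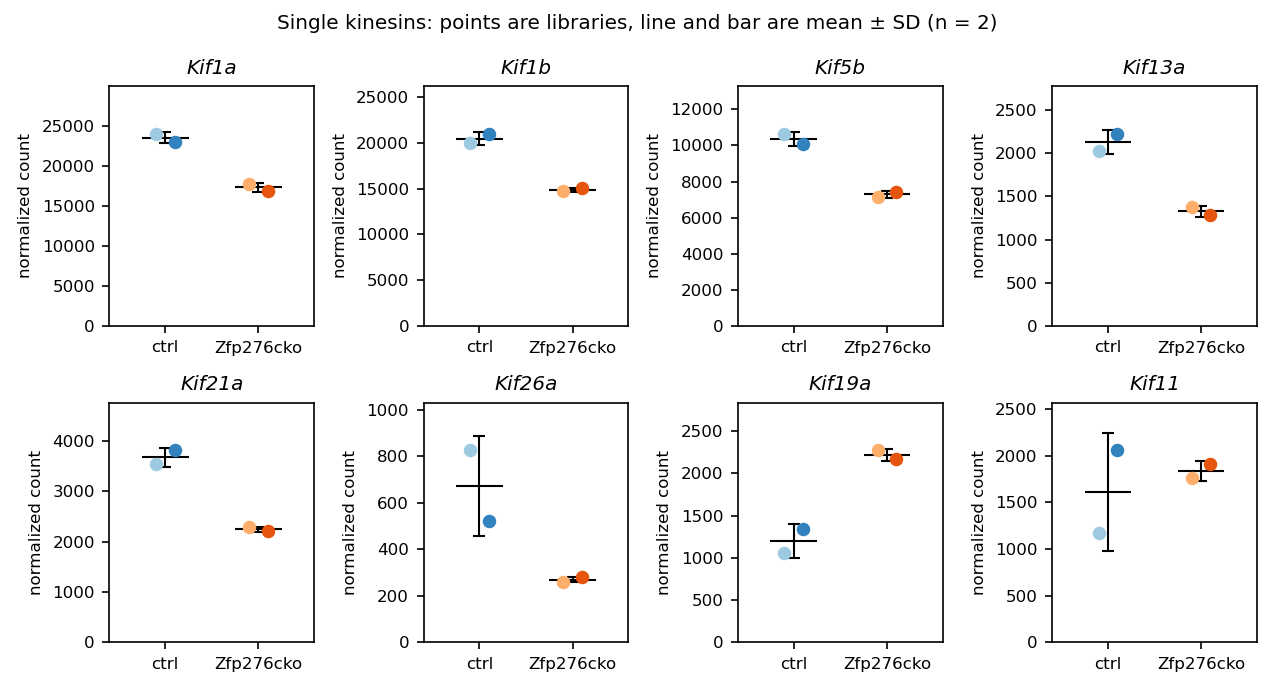
Normalized counts of Kif1a, Kif1b, Kif5b, Kif13a, Kif21a, Kif26a, Kif19a and Kif11 in each library (points), with the mean and SD of each genotype (n = 2) and axes from 0. For the first 6 genes both Zfp276cko points lie below both ctrl points, for Kif19a they lie above, and for Kif11 they lie between the widely separated ctrl points.

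The mitotic kinesins varied together between the ctrl libraries. In all 12, ctrl replicate 1 was the lowest of the 4 libraries (background 33.3% of genes), and in all 12 the ctrl replicates were further apart on the log2 scale than the genotype means (background 60.3%). The median gap between the ctrl replicates was 0.55 on the log2 scale. Kif11 (chr19:37376403-37421859), which pushes the spindle poles apart and whose promoter is shown above, had 1168 and 2056 normalized counts in ctrl against 1764 and 1912 in Zfp276cko cells. Its log2 fold change was 0.19 ± 0.29 (unadjusted p = 0.55 from edgeR). Kif15, which can take over part of the work of Kif11, had 440 and 761 in ctrl against 710 and 782 in Zfp276cko cells (0.31 ± 0.29). Kifc1, which walks to the minus end and focuses the poles, had the largest value of the group at 0.40 ± 0.38, from 234 and 473 in ctrl against 520 and 414 in Zfp276cko cells.

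Kinesins of chromosomes and kinetochores showed the same order, with ctrl replicate 1 lowest. Kif22 (chr7:127027729-127042471), a chromokinesin, had 511 and 816 normalized counts in ctrl against 634 and 655 in Zfp276cko cells, with a log2 fold change of −0.04. The chromokinesin Kif4 (546 and 812 in ctrl, 714 and 690 in Zfp276cko cells) had 0.05. Kif2c, which takes microtubules apart at kinetochores, had 494 and 670 against 665 and 706 (0.24). Kif18a and Kif18b, which act on the plus ends of spindle microtubules, had log2 fold changes of 0.13 and 0.16, with ctrl replicates 0.53 and 0.85 apart on that scale.

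Kinesins of cytokinesis had ctrl replicates that lay between 0.15 and 0.48 apart on the log2 scale. Kif20a, which brings the chromosomal passenger complex to the spindle midzone, had 800 and 886 normalized counts in ctrl against 880 and 809 in Zfp276cko cells, with a log2 fold change of 0.0017 ± 0.12. Exons of Kif20a overlap Cdc23 on the opposite strand over 29.3% of their length. Kif23 (chr9:61915905-61946774), the motor of centralspindlin, had 382 and 494 in ctrl against 514 and 491 in Zfp276cko cells (0.20 ± 0.18). Kif20b had a log2 fold change of 0.21. Kif14, which anchors citron kinase at the midbody, had 273 and 380 against 408 and 405 (0.31 ± 0.21), and was the single mitotic kinesin whose Zfp276cko libraries both exceeded both ctrl libraries. Standard errors of the mitotic kinesins ran from 0.12 (Kif20a) to 0.38 (Kifc1). Differences within these errors were not detectable, and larger ones could be missed too. That of Kif14 exceeded its error and had an unadjusted p of 0.211 from edgeR.

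**Figure D5:**
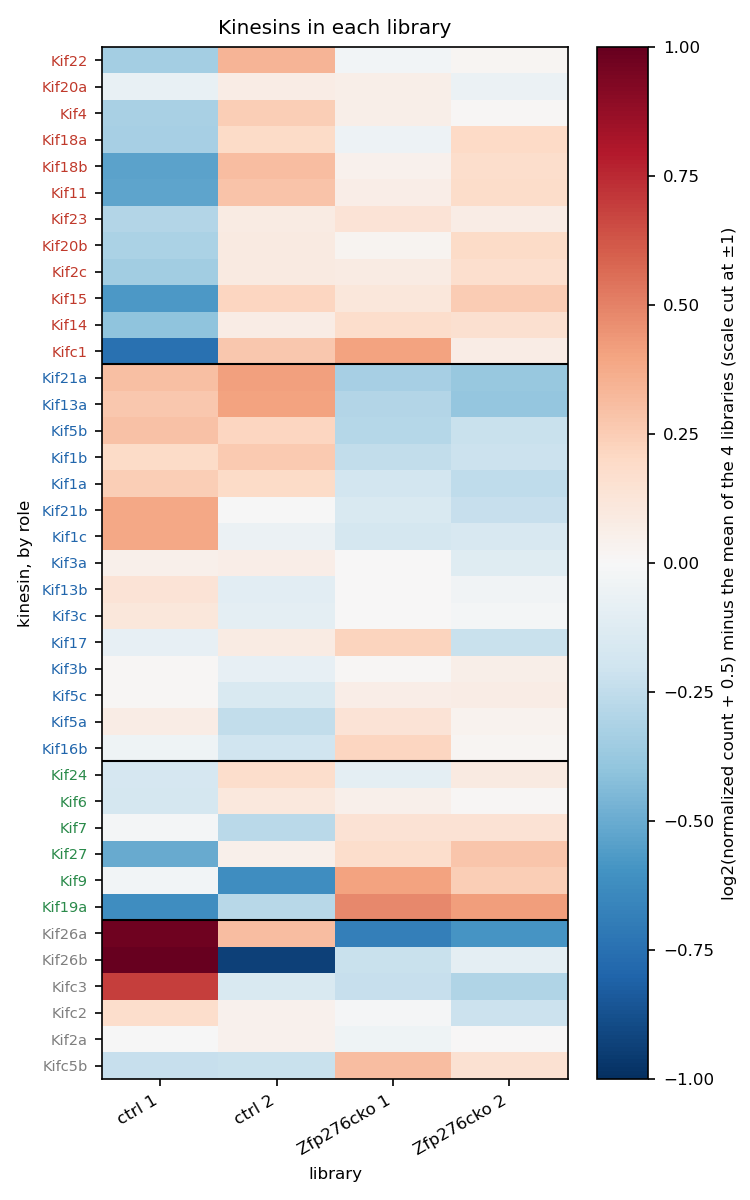
Log2 of the normalized count plus 0.5, minus the mean over the 4 libraries, for 39 kinesins (rows, grouped by role) in each library (columns), with red above and blue below the gene's mean and the scale ending at ±1. Ctrl 1 is blue in all 12 mitotic rows, and the upper transport rows (Kif21a to Kif1a) are red in both ctrl columns and blue in both Zfp276cko columns.

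Results on the mitotic members turned on a single library. Without ctrl replicate 2, edgeR called Kif11, Kif15, Kif18b and Kifc1 higher along with Kif19a (background 10.8%), and the median of the mitotic group was 0.44. Without ctrl replicate 1, 0 mitotic kinesins were called and the median was −0.05, on the other side of 0. Kif13a, Kif21a and Kif26a were called lower in both of these fits (background 5.76% without ctrl replicate 1 and 7.77% without ctrl replicate 2), and Kif19a higher in both. Kif26b and Kif9 were further called higher without ctrl replicate 1 (background 10.2%), while Kif26b and Kifc3 were called lower without ctrl replicate 2. The transport median was −0.11 and −0.17 in these fits. A lone ctrl library was there assumed to vary as the Zfp276cko libraries do.

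Genes that work with the mitotic kinesins were mostly lowest in ctrl replicate 1 too. Mki67, a proliferation marker, had 3723 and 6679 normalized counts in ctrl against 5798 and 5935 in Zfp276cko cells. Of 30 mitosis partners, all tested, 29 were lowest in ctrl replicate 1, and so were 28 of 30 DNA replication genes (background 33.3%). Both Zfp276cko libraries exceeded both ctrl libraries in 9 of the partners and 10 of the replication genes (background 26.8%), and lay below both in 0 and 2 (23.7%). The medians of their log2 fold changes were 0.19 and 0.25. Of the 15 neuronal markers, 10 were lowest in ctrl replicate 1 as well, and their part in the mitotic values was not tested. An unadjusted p of at most 0.05 from edgeR was reached by 1 of the 30 partners and 1 of the 30 replication genes, both higher (background 8.33%). The partner was Ccnb2 (241 and 294 against 445 and 438, log2 fold change 0.72 ± 0.17, adjusted p = 0.195 from edgeR). Ccnb1 (0.28) and Ect2 (0.31) were the next by p. The replication gene was E2f1 (0.71), and Pola1 (−0.32) and Ccne2 (0.62) followed by p in that list. Adjusted values of these genes ran from 0.207 to 0.400 in edgeR. Of the kinesins without a Kif name, the kinetochore motor Cenpe had 787 and 1228 in ctrl against 1117 and 1185 in Zfp276cko cells, with ctrl replicate 1 again lowest. Stard9, a centrosomal kinesin, had 3138 and 1997 against 3033 and 2916, with ctrl replicate 2 lowest.

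Partners of transport were counted from lists of their own. Of 17 kinesin light chains and cargo adaptors, 7 lay below both ctrl libraries (background 23.7%) and 3 above (26.8%), the median log2 fold change was −0.05, and 3 reached an unadjusted p of 0.05, all lower (background 7.3%). These were Mapk8ip1, the JIP1 adaptor of kinesin-1 (−0.54), Trak2, an adaptor for mitochondria (−0.50), and the light chain Klc1 (−0.31). Klc1 had 6632 and 6932 normalized counts in ctrl against 5591 and 5317 in Zfp276cko cells. Of 24 genes of dynein and dynactin, the motor that walks the opposite way, 11 lay below and 3 above, against the same background, with a median of −0.14. Again 3 had an unadjusted p of at most 0.05, all lower. Dynll1, a dynein light chain that also binds many other proteins, had 9898 and 9781 in ctrl against 6443 and 5344 in Zfp276cko cells (−0.74 ± 0.13, adjusted p = 0.160 from edgeR) and was called by DESeq2. Nde1 (−0.47) and Dync1i2 (−0.31) were the others.

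Most markers of OLs and OPCs lay below both ctrl libraries, beside the transport kinesins, and most of those of neurons, microglia and astrocytes did not. Markers of ependymal cells and of fibroblasts and vessels, whose sums were lower in both Zfp276cko libraries, are given further below. Of the 14 OL markers, 11 lay below both ctrl libraries (background 23.7%) and 1 above (26.8%), and the median of their log2 fold changes was −0.86. Of the 10 OPC markers, 7 lay below, 0 above and 3 overlapped, with a median of −0.56. They summed to 179217 and 150738 in ctrl against 121085 and 121495 in Zfp276cko cells. Pdgfra, the OPC marker that the study stained, overlapped, with 10049 and 15501 in ctrl against 11842 and 11561 in Zfp276cko cells (−0.13 ± 0.24). The list also holds genes that are not confined to OPCs, such as Olig2 (−0.60) and Sox10, so it does not measure the OPC stage alone. Sox10, expressed through the whole lineage, had −0.09. Of 15 neuronal markers 3 lay below and 2 above, and their sums of 24411 and 40896 in ctrl against 27874 and 30251 in Zfp276cko cells overlapped. Of 13 microglial markers 0 lay below and 4 above, with a median of 0.14. Of 10 astrocyte markers 2 lay below and 1 above, with a median of 0.06. Their sums were nonetheless lower in both Zfp276cko libraries, at 44864 and 42700 against 48923 and 48577 in ctrl. The part of cell composition in the lower transport kinesins was not tested.

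Of the kinesins linked to cilia, 4 of 6 lay above both ctrl libraries (background 26.8%) and 0 below (23.7%). Kif19a (chr11:114765388-114790739), which limits the length of motile cilia, had 1053 and 1340 normalized counts in ctrl against 2272 and 2169 in Zfp276cko cells, a mean of 186% of ctrl. Its log2 fold change was 0.89 ± 0.15 (adjusted p = 0.139 from edgeR, 7.89e-04 from DESeq2), and it ranged from 0.73 to 1.06 without each library in turn. Kif7, a regulator of Hedgehog signalling at the tip of the primary cilium, had 738 and 622 against 827 and 831 (0.28 ± 0.13). Kif9, of motile cilia, had 62.9 and 41.6 against 85.1 and 76.5 (0.63 ± 0.32, adjusted p = 0.433). Kif27, the relative of Kif7, also lay above both ctrl libraries, with between 7 and 17 counts. Kif6 (0.06) and Kif24, which restrains the growth of primary cilia (−0.01), had overlapping genotypes. Markers of ependymal cells, which carry motile cilia, were sparse. Of 9, 4 passed the filter on low counts, with 1 below both ctrl libraries, 3 overlapping and a median log2 fold change of −0.03. The list summed to 289 and 291 normalized counts in ctrl against 203 and 197 in Zfp276cko cells, and most of that sum was Foxj1, a regulator of motile cilia, at 205 and 230 against 126 and 124. The part of ependymal cells in the values of Kif19a was not tested. Tmem212 and Ccdc153 had between 0 and 3 counts in each library.

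Among the remaining kinesins Kif26a (chr12:112146208-112181747), an atypical member that binds microtubules without motility, had the largest difference of the family. It had 825 and 520 normalized counts in ctrl against 262 and 279 in Zfp276cko cells, or 40.2% of ctrl, with a log2 fold change of −1.31 ± 0.27 (adjusted p = 0.173 from edgeR, 0.00147 from DESeq2). The value was −0.94 when ctrl replicate 1 was left out and −1.62 without ctrl replicate 2. Its relative Kif26b, known from kidney development, had 401 and 87.8 in ctrl against 144 and 157 in Zfp276cko cells. Both Zfp276cko libraries lay between the ctrl libraries, and the log2 fold change of −0.70 ± 0.74 became 0.78 without ctrl replicate 1. Kifc3, a minus-end motor of epithelial junctions, had 2638 and 1470 against 1393 and 1332 (−0.59 ± 0.30), and its value was −0.11 without ctrl replicate 1. In these 3 genes ctrl replicate 1 was the highest library.

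Markers of fibroblasts and vessels also summed highest in ctrl replicate 1, at 11898 normalized counts against 4509 in ctrl replicate 2 and 2850 and 2654 in the Zfp276cko libraries. Cspg4 alone held 2809 of the sum in ctrl replicate 1, 3918 in ctrl replicate 2, and 2300 and 2177 in the Zfp276cko libraries. It thus made up most of the sum in every library but ctrl replicate 1. Of this list of 11, which shares Cspg4 with the OPC list, 10 were tested, Cldn5 had no count in any library, and the median log2 fold change was −2.08, or 0.40 without ctrl replicate 1. Their part in the values of Kif26a, Kif26b and Kifc3 was not tested.

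Kif2a, which takes microtubules apart in neurites and spindles, was among the steadiest kinesins, with 2088 and 2164 normalized counts in ctrl against 2035 and 2103 in Zfp276cko cells (−0.04 ± 0.08). Kifc2, a minus-end motor of neurons, had a log2 fold change of −0.22. Kifc5b had 253 and 254 against 367 and 331 (0.46 ± 0.16, adjusted p = 0.301). Kifc5b is a near copy of Kifc1, and 20.9% of its 101-base windows, the length of the reads, occur in Kifc1 transcripts too, so that both counts are uncertain where only unique reads were counted. Of the genes that are no kinesins, Kif1bp had 3526 and 6096 in ctrl against 3172 and 3151 in Zfp276cko cells (−0.61 ± 0.28, adjusted p = 0.404), and Kif16bos had between 0 and 2 counts, too few for the test.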

How the data were processed

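RNA was sequenced from 2 ctrl and 2 Zfp276cko preparations as stranded mRNA libraries with single reads. Per the submitters' processing notes, the authors mapped reads to mm10 (GRCm38) with STAR 2.5.4a and counted them with featureCounts 1.5.1, whereas the methods name HTSeq on Ensembl genes. The deposited values are raw counts of reads, whole numbers listed by gene symbol. The strand setting is not given in the sources used here, so a kinesin and a gene overlapping it on the opposite strand may share reads.

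Genes passing filterByExpr of edgeR 4.0.16 in R 4.3.3 (15766 genes with 99.9% of the counts) were normalized with TMM and fitted with the quasi-likelihood test on genotype alone, with Benjamini-Hochberg adjustment over all tested genes. DESeq2 1.42.0, the tool of the study, was an alternative. Thresholds on adjusted p, fold change and mean were those of the study. The analysis was tested on simulated counts. Other alternatives were another scaling, other filters, the newer quasi-likelihood setting, an unadjusted p, a replicate block and leaving out each library. Same-numbered libraries did not deviate together (r = −0.0050 over genes). The Zfp276cko libraries barely differed (biological coefficient of variation 0.0480), so this value cannot show whether preparations were paired. The labels give only replicate numbers, and the genotypes were not treated as paired. Groups came from the genotype labels, and the preparations are taken as independent because the study's methods say so. Floors and standard errors cover counting error and the libraries counted, not further mice.

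Every kinesin could be named, with its values where its mean normalized count was at least 20. From the other lists the 3 genes with the lowest unadjusted p could be named where their values bear on the kinesins. Other names (Kif27, Kif28 and undetected markers) stand only for counts near 0, and those of promoters or overlapping genes carry no level. Snap25, Syt1 and Gad1 were picked afterwards to show the gap between the ctrl libraries, and Pdgfra as the OPC marker of the study. Members and lists were chosen with earlier results of these data known. Levels per kb use exon lengths of the GENCODE annotation of GRCm38, in which all 44 symbols were found, and promoters came from RefSeq (GRCm38.p6).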

Additional observations from a re-analysis of the deposited data

How the results depend on the processing

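The count of kinesins called was 0 higher and 0 lower with edgeR, 1 higher and 3 lower with DESeq2, and 1 higher and 3 lower with an unadjusted p. Leaving out 1 library at a time gave 0 to 5 kinesins higher and 0 to 5 lower. All calls in those fits came without ctrl replicate 1 (3 higher, 3 lower) or without ctrl replicate 2 (5 higher, 5 lower), where a lone ctrl library was assumed to vary like the Zfp276cko libraries, and 0 came without either Zfp276cko library. The median log2 fold change of the mitotic kinesins lay between −0.05 and 0.44 in these fits, and that of the transport kinesins between −0.23 (without Zfp276cko replicate 1) and −0.051 (without Zfp276cko replicate 2). Kif26b reversed, to 0.78 without ctrl replicate 1, against −1.43 without ctrl replicate 2. In all, 12 of 39 kinesins changed sign without ctrl replicate 1, 3 without ctrl replicate 2, 3 without Zfp276cko replicate 1 and 1 without Zfp276cko replicate 2. Zfp276 was called at −1.98 by DESeq2, and its value was between −2.17 and −1.75 with a library left out. With the replicate number as a block, 0 kinesins were called, the medians were 0.22 (mitotic) and −0.12 (transport), and Zfp276 had −1.95. The block changed no call, and the numbers alone do not pair the preparations. The size factors of DESeq2, other filters and the newer quasi-likelihood setting changed 0 calls and the sign of at most 2 kinesins each. The cause of these differences was not tested. With 2 libraries per genotype and a ctrl spread of 0.357, small differences of mitotic kinesins could not be detected.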
